A study of Mus musculus with 16 samples.

Results

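Lhx1-null and wild-type embryonic stem (ES) cell cultures were compared after 5 days of differentiation toward definitive endoderm (DE). RNA abundance was read on Illumina Mouse WG-6 v2 arrays, and 8 of the 16 arrays of the series belong here, 4 from null and 4 from wild-type cultures. The remaining arrays, of a later day, were not used. Null cultures carry the genotype Lhx1∆/∆ and wild-type cultures Lhx1+/+. By the methods both kinds of line were derived from blastocysts from intercrosses of heterozygous mice, and all cultures were grown as aggregates without LIF and then given ActivinA and EGF. The methods name 4 independent null lines as biological replicates, and wild-type control lines without a clear number of their own. Each culture was taken as a sample of its own, which for the wild-type cultures is an assumption. Each RNA sample comes from a whole culture, and DE cultures of this kind hold other cell types as well. A probe was kept if it was above background (detection p under 0.01) on 4 or more of the 8 arrays, which left 13899 of 45281 probes. These cover 8144 genes with a symbol, and 1725 of the kept probes have no single symbol.

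Lhx1 (Lim1) encodes a LIM-homeodomain transcription factor that works with the cofactors Ldb1 and Ssbp proteins. In the gastrulating mouse embryo it acts in the anterior visceral endoderm and in the anterior primitive streak, whose descendants form the DE, the anterior mesendoderm, the node and the notochord. Embryos without Lhx1 lack the forebrain and other anterior head structures. Anterior DE and mesendoderm are sources of secreted Wnt, Nodal and BMP antagonists that pattern the overlying neural plate.

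Lhx1 itself was read by 2 kept probes and was still bright in 3 of 4 null cultures. With ILMN_1225672 the log2 intensities were 13.61, 13.38, 14.40 and 8.06 in null cultures 1 to 4, against 14.59, 14.62, 14.68 and 14.31 in wild-type cultures 1 to 4. With ILMN_2716543 they were 12.63, 12.60, 13.77 and 7.61 in null cultures, against 14.05, 14.23, 14.42 and 13.86 in wild-type cultures. Null culture 4 lay far below the rest with both probes, and the groups overlapped with the first probe only. The difference, null minus wild-type, was -2.19 (exact permutation p = 0.0571, 2-sided, n = 4 each) with the first probe and -2.49 (exact permutation p = 0.0286, the smallest that 4 against 4 allow) with the second. Across all kept probes, limma gave adjusted p of 0.674 and 0.572. Without null culture 4 the differences were -0.76 (exact p = 0.0571) and -1.14 (exact p = 0.0286). The files do not place either probe relative to the deleted exons, so these levels do not check the genotype labels.

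The arrays differed in other ways. Between 10734 and 15319 probes were above background in null cultures and between 11207 and 14355 in wild-type cultures, with the lowest numbers in culture 3 of each genotype. Log2 intensities of all kept probes correlated at 0.871 to 0.943 within null cultures, 0.897 to 0.959 within wild-type cultures and 0.858 to 0.957 between the genotypes. The first principal component held 33.09% of the variance and did not separate the genotypes. The second, with 24.62%, separated them, at 12.4, -1.9, 17.3 and 67 in null cultures 1 to 4 and -17.2, -35, -18.5 and -24.2 in wild-type cultures 1 to 4, and null culture 4 lay farthest out. Eif2s3y, a gene of the Y chromosome, had log2 intensities of 9.17, 5.27, 6.27 and 5.80 in null cultures 1 to 4 and 9.21, 9.62, 8.22 and 7.68 in wild-type cultures 1 to 4. It was thus low in 3 null cultures, and every call below was lost with Eif2s3y as a covariate, in a fit that called 0 probes (limma, 976 at an unadjusted p under 0.05). The log2 fold changes of the 18 called probes kept their sign in that fit and were 0.774 to 1.19 times those without the covariate, the lowest for Ifitm3 (1.59 with the covariate), while their adjusted p was 0.129 to 0.296.

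Of the 13899 probes, 18 (0.13%) differed between null and wild-type cultures at a Benjamini-Hochberg adjusted p under 0.05 in limma. Of these, 15 (0.108%) were lower in null cultures and represent 14 genes, and 3 (0.0216%) were higher. At an unadjusted p under 0.05 there were 811 lower (5.83%) and 459 higher (3.3%) probes. The null cultures all lay below the wild-type cultures for 440 probes (3.17%) and above them for 267 (1.92%), the 18 called probes among them. Without the detection filter 0 of 45281 probes passed in limma (2987 at an unadjusted p under 0.05), where the lowest adjusted p among the 18 was 0.0584. The median log2 fold change over all kept probes was 0.02. Of the 15 lower probes, 7 were below background on all 4 null arrays, and of the 3 higher probes 2 were below background on all 4 wild-type arrays. For these a bound is given, the mean of the bright group over, on each array of the dim group, the lowest level called detected or the level of the probe itself where that was higher, as "at least N-fold". A probe detected only in the wild-type cultures passed the filter because it was high there, and one detected only in the null cultures because it was high in these, so the direction of these 7 lower and 2 higher calls is in part fixed by the filter. In cultures that mix cell types, fewer cells of a type and less RNA per cell cannot be told apart.

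**Figure D1:**
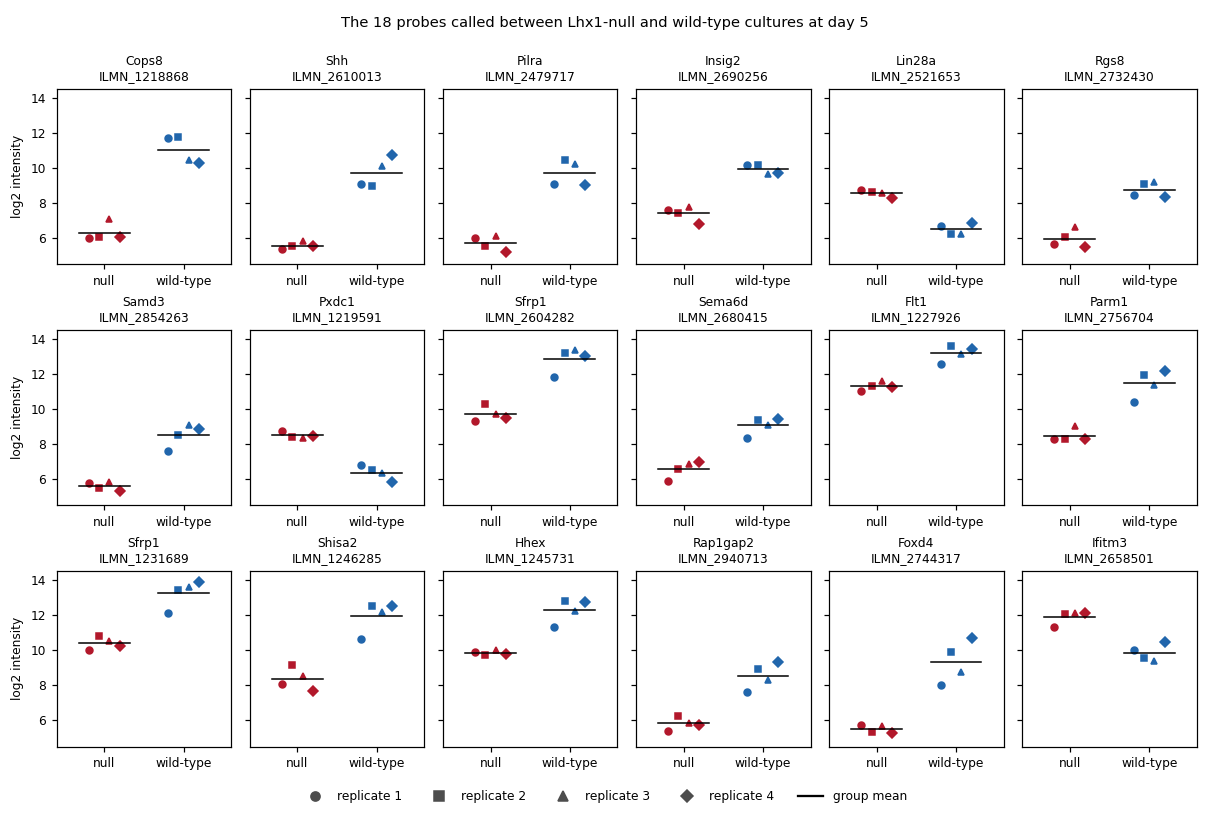
Log2 intensity of each of the 18 called probes in the 4 null (red, left) and 4 wild-type (blue, right) day 5 cultures, with marker shapes for culture numbers and bars for group means. No panel has an overlap between the groups, and wild-type culture 1 (circle) is the lowest wild-type culture in 10 of the 15 probes that were lower in null cultures.

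Genes of anterior DE and axial mesendoderm (Shh, Hhex, Foxd4, Shisa2 and Sfrp1) accounted for 6 of the 15 lower probes. Of all 13899 kept probes, 19 belong to the anterior DE list and 17 to that of axial mesendoderm, node and notochord. The members of both lists were chosen with results of these samples known, so this grouping is a description. Sonic hedgehog (Shh), the ligand secreted by the notochord, prechordal plate and gut endoderm, was at 5.35, 5.53, 5.82 and 5.51 in null cultures and 9.10, 8.98, 10.09 and 10.75 in wild-type cultures. Shh was below background in every null culture and at least 5.87-fold lower there (log2 fold change -4.18, SE 0.38, adjusted p = 0.0123). A further Shh probe, ILMN_2802979, did not pass the detection filter and is not tested. Among the called genes below, the same holds for further probes of Sema6d, Pilra, Rap1gap2, Samd3, Insig2, Flt1 and Shisa2.

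Hhex, a homeobox gene of anterior endoderm needed for forebrain and liver development, was at 9.87, 9.71, 10.01 and 9.77 in null cultures and 11.29, 12.81, 12.20 and 12.73 in wild-type cultures. The null cultures lay close together, and wild-type culture 1 was nearest to them. Its log2 fold change was -2.42 (SE 0.32, adjusted p = 0.0382). Foxd4, a forkhead gene of the anterior mesendoderm and neuroectoderm, had 5.71, 5.32, 5.68 and 5.25 in null cultures and 7.99, 9.89, 8.75 and 10.71 in wild-type cultures. It was below background in all 4 null cultures and at least 4.46-fold lower (adjusted p = 0.0408). With the culture number as a block neither Hhex (adjusted p = 0.0793) nor Foxd4 (0.0916) passed, and Foxd4 also did not pass without background correction (0.0849), with an offset of 50 (0.0706) or in rank invariant values (0.0949).

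The Wnt antagonists Sfrp1 and Shisa2 were also among the lower calls. Secreted frizzled-related protein 1 (Sfrp1), which binds Wnt ligands outside the cell, was called with both of its kept probes. With ILMN_2604282 Sfrp1 had 9.32, 10.26, 9.71 and 9.49 in null cultures and 11.79, 13.20, 13.36 and 13.02 in wild-type cultures, which differ by -3.15 (SE 0.37, adjusted p = 0.0220) on the log2 scale. With ILMN_1231689 the log2 fold change was -2.88 (SE 0.38, adjusted p = 0.0382). Shisa2, which encodes an endoplasmic reticulum protein that holds back Wnt and FGF receptors, as first described for the Shisa family in Xenopus, had 8.05, 9.15, 8.54 and 7.65 in null cultures and 10.62, 12.50, 12.17 and 12.53 in wild-type cultures. For Shisa2 the log2 fold change was -3.61 (SE 0.48, adjusted p = 0.0382), and the highest null culture lay below the lowest wild-type culture.

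The frizzled receptor gene Fzd8 was below background in all 4 null cultures, at 5.41, 6.18, 6.45 and 6.48, against 7.79, 9.84, 9.50 and 9.21 in wild-type cultures. It was at least 3.75-fold lower but did not pass (adjusted p = 0.0680), whereas it did with the culture number as a block (adjusted p = 0.0266). Fzd5, a related receptor, had 10.10, 10.92, 10.84 and 8.02 in null cultures and 12.60, 14.22, 14.20 and 14.81 in wild-type cultures with ILMN_3161263. Its groups did not overlap, but with a log2 fold change of -3.99 (SE 0.69) it did not pass either (adjusted p = 0.102), nor did its second kept probe ILMN_2591703 (-2.23, adjusted p = 0.141).

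Of the remaining lower calls, Sema6d, a transmembrane semaphorin that guides migrating cells and axons, had 5.88, 6.56, 6.85 and 6.98 in null cultures and 8.37, 9.38, 9.09 and 9.42 in wild-type cultures (log2 fold change -2.50, SE 0.31, adjusted p = 0.0378). It was above background in only 1 null culture. Flt1, a receptor for VEGF, was bright in both groups, at 11.01, 11.28, 11.56 and 11.27 in null cultures and 12.56, 13.60, 13.16 and 13.39 in wild-type cultures (log2 fold change -1.90, SE 0.25, adjusted p = 0.0382). Flt1 thus differed at a level well above the detection limit.

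Pilra, a paired immunoglobulin-like receptor known from myeloid cells, had 6.0, 5.54, 6.14 and 5.22 in null cultures and 9.07, 10.44, 10.23 and 9.01 in wild-type cultures. It was below background in every null culture and at least 5.70-fold lower (adjusted p = 0.0123). Parm1, the gene of a mucin-like surface protein, had 8.27, 8.30, 9.02 and 8.28 in null cultures and 10.37, 11.96, 11.37 and 12.18 in wild-type cultures (log2 fold change -3.002, SE 0.39, adjusted p = 0.0382). Its call was lost with the block (adjusted p = 0.0629), and its second kept probe, below background in all null cultures, was at least 3.63-fold lower without passing (adjusted p = 0.0833).

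Rgs8, a regulator of G protein signalling, had 5.64, 6.08, 6.62 and 5.50 in null cultures and 8.43, 9.05, 9.17 and 8.36 in wild-type cultures, at least 2.98-fold lower (adjusted p = 0.0161). Rap1gap2, which turns off the small GTPase Rap1, had 5.41, 6.23, 5.86 and 5.76 in null cultures and 7.59, 8.94, 8.30 and 9.33 in wild-type cultures, at least 2.57-fold lower (adjusted p = 0.0408). Neither was above background in any null culture. The call of Rap1gap2 was lost without background correction (adjusted p = 0.0809), with an offset of 50 (0.0586) and in rank invariant values (0.0949). Samd3, the gene of a SAM domain protein, was called with ILMN_2854263, at 5.78, 5.49, 5.85 and 5.31 in null cultures and 7.63, 8.495, 9.11 and 8.84 in wild-type cultures, at least 2.54-fold lower (adjusted p = 0.0161). The brighter Samd3 probe ILMN_1232090 had 8.37, 7.20, 9.43 and 5.26 in null cultures and 10.90, 11.53, 12.13 and 11.81 in wild-type cultures. With it the groups did not overlap, and the log2 fold change of -4.03 (SE 0.78) did not pass (adjusted p = 0.118).

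The lowest p belonged to Cops8, a subunit of the COP9 signalosome, which regulates ubiquitin ligases. Cops8 had 6.0, 6.05, 7.09 and 6.05 in null cultures and 11.68, 11.75, 10.44 and 10.25 in wild-type cultures. It was below background in every null culture and at least 14.46-fold lower (log2 fold change -4.73, SE 0.42, adjusted p = 0.0123). Among wild-type cultures, numbers 1 and 2 were high and numbers 3 and 4 lower. Insig2, which retains the sterol sensor SCAP in the endoplasmic reticulum, had 7.60, 7.44, 7.78 and 6.78 in null cultures and 10.15, 10.17, 9.65 and 9.71 in wild-type cultures with ILMN_2690256 (log2 fold change -2.52, SE 0.25, adjusted p = 0.0123). With the second Insig2 probe, ILMN_1216822, the log2 fold change was -0.12 (SE 0.23, adjusted p = 0.929) and the groups overlapped.

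The 3 higher calls were Lin28a, Pxdc1 and Ifitm3. Lin28a, an RNA-binding protein of pluripotent cells that blocks let-7 maturation, had 8.74, 8.65, 8.54 and 8.26 in null cultures and 6.69, 6.22, 6.22 and 6.85 in wild-type cultures with ILMN_2521653. This probe was not above background in any wild-type culture and was higher by at least 2.29-fold in null cultures (log2 fold change 2.05, SE 0.21, adjusted p = 0.0123). The other 3 kept Lin28a probes had log2 fold changes of 0.08, -0.37 and -0.09 (adjusted p = 0.952, 0.880 and 0.977), so the gene was called by 1 of 4 probes. Pxdc1, which encodes a PX domain protein, had 8.76, 8.43, 8.32 and 8.48 in null cultures and 6.82, 6.55, 6.32 and 5.81 in wild-type cultures. It was not detected in any wild-type culture, and in null cultures it was higher by at least 2.22-fold (adjusted p = 0.0161).

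Ifitm3, an interferon-induced membrane protein that also marks early germ cells, had 11.30, 12.08, 12.09 and 12.09 in null cultures and 9.98, 9.55, 9.40 and 10.43 in wild-type cultures (log2 fold change 2.05, SE 0.28, adjusted p = 0.0451). It did not pass with the culture number as a block (adjusted p = 0.0863). Its neighbour in the gene cluster, Ifitm1, did not overlap between the groups with 2 of its 3 kept probes, which had log2 fold changes of 1.19 and 1.11 without passing (adjusted p = 0.0884 and 0.106). The third, dimmer Ifitm1 probe had 0.78 (adjusted p = 0.668).

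**Figure D2:**
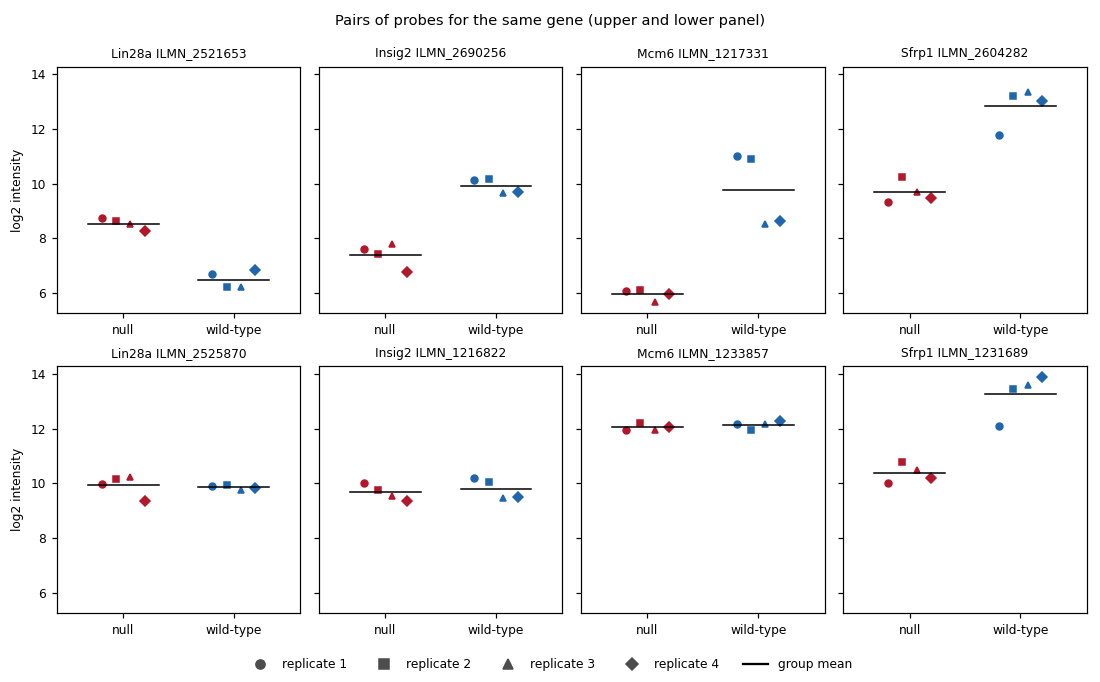
Log2 intensity of paired probes of Lin28a, Insig2, Mcm6 and Sfrp1 in null (red, left) and wild-type (blue, right) cultures, 1 probe in the upper and another in the lower panel of each column, with bars for group means. The probes of Sfrp1 differ alike, whereas for Lin28a, Insig2 and Mcm6 the groups differ with the upper probe and overlap with the lower.

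Agreement between probes was counted for genes with a probe at an unadjusted p under 0.001 and at least 2 kept probes, a threshold that 85 lower (0.612%) and 14 higher (0.101%) probes passed. Of 30 such genes, 21 had every other kept probe at an unadjusted p under 0.05 with the same sign, 3 had some, and 6 had none, namely Insig2, Lin28a, Mcm6, Ndel1, Nle1 and Phlda3. Mcm6, a subunit of the replicative helicase, had 6.09, 6.12, 5.67 and 5.99 in null cultures and 11.03, 10.90, 8.52 and 8.64 in wild-type cultures with ILMN_1217331. That probe was below background in all null cultures, at least 6.04-fold lower there, and did not pass (adjusted p = 0.0700). The remaining Mcm6 probes had log2 fold changes of -0.10 and 0.16 (adjusted p = 0.918 and 0.881), at levels near 12 in both groups.

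The promoters of called genes are shown for Hhex, Foxd4 and Sema6d, since LIM-homeodomain proteins bind AT-rich sequences with a TAAT core. Each window runs from 250 bases before to 50 bases after a RefSeq transcription start (GRCm38.p6), and capitals mark TAAT or its reverse complement ATTA. Hhex lies at chr19:37434591-37434890 on the plus strand, Foxd4 at chr19:24900967-24901266 on the minus strand and the first Sema6d start at chr2:124089719-124090018 on the plus strand.
Hhex: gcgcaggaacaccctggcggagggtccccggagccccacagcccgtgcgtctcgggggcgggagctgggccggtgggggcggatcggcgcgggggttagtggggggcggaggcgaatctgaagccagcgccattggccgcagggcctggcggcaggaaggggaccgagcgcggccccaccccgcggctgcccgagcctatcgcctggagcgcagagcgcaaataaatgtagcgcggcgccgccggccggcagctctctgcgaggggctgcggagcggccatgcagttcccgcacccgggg
Foxd4: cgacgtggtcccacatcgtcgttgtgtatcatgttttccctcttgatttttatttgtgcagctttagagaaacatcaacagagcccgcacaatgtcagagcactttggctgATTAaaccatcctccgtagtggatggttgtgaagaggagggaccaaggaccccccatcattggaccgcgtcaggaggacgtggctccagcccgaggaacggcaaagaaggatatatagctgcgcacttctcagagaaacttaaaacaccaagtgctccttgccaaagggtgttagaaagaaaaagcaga
Sema6d: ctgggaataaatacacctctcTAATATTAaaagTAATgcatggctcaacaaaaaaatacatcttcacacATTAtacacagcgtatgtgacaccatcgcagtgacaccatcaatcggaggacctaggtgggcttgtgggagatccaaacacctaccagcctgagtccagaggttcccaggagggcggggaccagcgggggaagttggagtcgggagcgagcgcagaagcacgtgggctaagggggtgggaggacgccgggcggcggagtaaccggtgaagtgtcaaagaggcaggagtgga
The Hhex window holds 0 matches, the Foxd4 window 1 and the Sema6d window 4. RefSeq windows were found for 15 of the 17 called genes. TAAT on either strand occurred in a window of 9 of these 15, against 45.7% of the 6678 genes with a kept probe and a window, and in 58% of all 32851 windows. The longer palindrome TAATTA occurred in 0 of the 15, against 3.04% of the genes with a kept probe. These matches are a description of the letters in short windows.

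The probes were also counted in gene lists. In the list of anterior DE genes, 15 of 18 genes were kept, with 19 probes, and 5 of the probes were called lower and 0 higher. All 19 log2 fold changes were negative, with a median of -2.67 beside 0.02 for all kept probes. At an unadjusted p under 0.05 there were 16 lower probes, of 12 genes. Over all 13899 kept probes 5.83% were lower and 3.3% higher at that threshold, the shares to set beside this list and those below. The members of the lists were chosen with results of these samples known, so their direction is not independent evidence. Beyond Hhex, Foxd4, Sfrp1 and Shisa2, the Nodal and BMP antagonist Cer1 had 6.46, 7.58, 8.999 and 5.39 in null cultures and 9.68, 11.31, 11.70 and 11.11 in wild-type cultures with ILMN_2884751 (log2 fold change -3.84, SE 0.75, adjusted p = 0.118). Otx2, a homeobox gene of the anterior embryo, had 11.12, 12.34, 12.05 and 8.72 in null cultures and 12.95, 13.80, 13.28 and 13.44 in wild-type cultures (log2 fold change -2.31, SE 0.71, adjusted p = 0.338). In both genes the groups did not overlap and null culture 4 was lowest, and neither passed the test.

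**Figure D3:**
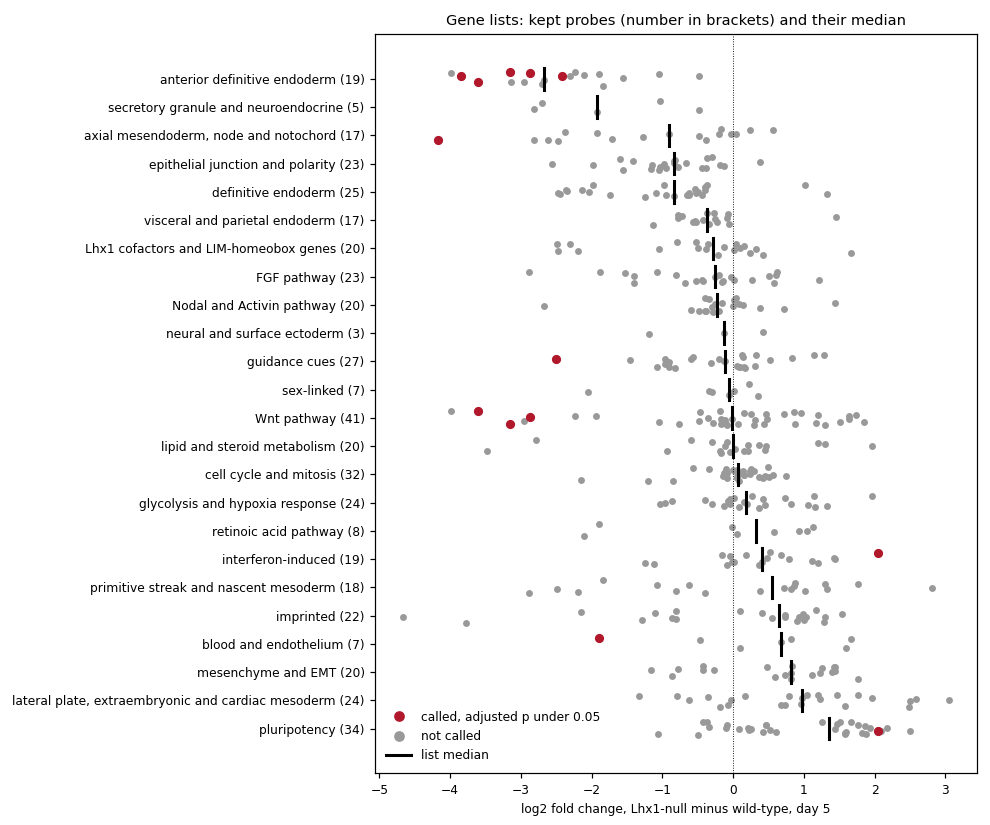
Log2 fold change, null minus wild-type, of each kept probe (points) in 24 gene lists, with called probes in red and the median of a list as a bar. The anterior DE list has the lowest median, -2.67, and the pluripotency list the highest, 1.35.

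In the broader DE list none of 25 probes was called, and the median was -0.84. At an unadjusted p under 0.05 in limma 11 probes, of 9 genes, were lower and 0 higher. Sox17, an endoderm transcription factor, had 9.88, 9.74, 10.77 and 8.12 in null cultures and 11.71, 12.51, 12.12 and 11.97 in wild-type cultures with ILMN_2747986 (log2 fold change -2.45, SE 0.49, adjusted p = 0.130). Foxa2, a forkhead gene of endoderm and floor plate, had 7.75, 8.46, 8.74 and 5.85 in null cultures and 10.05, 10.53, 9.85 and 10.24 in wild-type cultures (log2 fold change -2.47, SE 0.57, adjusted p = 0.173). Neither gene had an overlap between the groups. The second Sox17 probe, ILMN_2784446, passed with the culture number as a block and not without it. By contrast Cxcr4, a chemokine receptor used to sort DE cells, had 11.26, 10.15, 10.29 and 9.75 in null cultures and 10.52, 11.59, 10.94 and 11.02 in wild-type cultures, which overlapped (log2 fold change -0.65, SE 0.35, adjusted p = 0.649). Eomes and Mixl1, factors of the primitive streak and early DE, also overlapped, with adjusted p between 0.879 and 0.956 over 4 probes. The cultures of both genotypes thus held RNA of DE markers, with Epcam below background throughout.

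Of the axial mesendoderm, node and notochord list 1 of 17 probes was called, that of Shh, with a median of -0.91 (-0.40 without null culture 4). The median was -0.39 over probes detected on all 8 arrays and -0.32 without the detection filter. At an unadjusted p under 0.05 in limma 8 probes, of 6 genes, were lower and 0 higher. The probes of Foxj1, Nodal, Sox9, Chrd, Bicc1 and Gdf1 overlapped between the groups. Their log2 fold changes were -0.91 to 0.57 (adjusted p = 0.63 to 0.99 in limma). Col2a1, the collagen of the notochord sheath, had log2 fold changes of -2.81, -2.61 and -2.37 over its 3 probes (adjusted p = 0.189, 0.163 and 0.223). Cfc1, Dand5, Gli1, Hhip, Nog and Noto were below background on all 8 arrays.

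In the Wnt pathway list 3 of 41 probes were called, all lower, those of Sfrp1 and Shisa2. At an unadjusted p under 0.05 there were 8 lower and 5 higher, and the median was -0.02. The higher ones were those of Lef1, Axin2, Nkd1, Wnt5a and Wnt5b. Lef1, a DNA-binding partner of beta-catenin, had 1.63 (SE 0.37, adjusted p = 0.173) as log2 fold change, Axin2, a feedback inhibitor that Wnt signalling induces, 1.63 (SE 0.61, adjusted p = 0.471) and Wnt5a 1.74 with ILMN_2472917 (SE 0.49, adjusted p = 0.283). With the brighter Wnt5a probe, ILMN_2511913, the groups overlapped (log2 fold change 1.18, adjusted p = 0.613 in limma). Tcf7l2 and Tcf7l1, of the same family as Lef1, were lower. Their log2 fold changes were -1.94 (SE 0.37, adjusted p = 0.118) and -0.77 (SE 0.29, adjusted p = 0.477 in limma). None of these probes passed the test over all probes. In the FGF pathway list none of 23 probes was called, with 5 lower and 1 higher at an unadjusted p under 0.05. The 5 lower probes belong to 3 genes, and 3 of them to Dusp4.

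Lists of mesoderm and of mesenchyme had positive medians without calls. Of 24 probes of lateral plate, extraembryonic and cardiac mesoderm, 0 were called in limma, 9 were higher and 1 lower at an unadjusted p under 0.05, and the median was 0.97. The 9 probes belong to 4 of the 14 kept genes, Tbx3 (4 probes), Msx1, Pmp22 and Bmp4, and the lower one to the cardiac myosin light chain gene Myl7 (log2 fold change -1.33, adjusted p = 0.535). Without null culture 4 the median was 0.015. Bmp4, a ligand that ventralizes mesoderm, had 13.01, 10.94, 10.84 and 12.61 in null cultures and 9.25, 9.39, 9.34 and 9.11 in wild-type cultures (log2 fold change 2.58, SE 0.49, adjusted p = 0.118). Tbx3, a T-box gene, had 10.12, 8.61, 8.67 and 9.999 in null cultures and 5.96, 6.98, 6.9997 and 7.44 in wild-type cultures with ILMN_1228778 (log2 fold change 2.50, SE 0.45, adjusted p = 0.106). Null cultures 1 and 4 were highest for both. The summed intensity of the list ranged from 13090 to 68510 in null cultures and from 7924 to 36890 in wild-type cultures, and Gata5, Hand2, Msx2 and Tbx5 were below background on all 8 arrays.

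Of 20 mesenchyme probes 0 were called, 6 were higher and 0 lower at an unadjusted p under 0.05, with a median of 0.82. The 6 probes belong to 4 genes, and 3 of them to Fn1. Negative log2 fold changes were found for 6 probes, those of Sparc, Tnc and Mmp14. Without the detection filter the median was 0.18. The mean of the list was 10.39, 9.52, 9.50 and 11.05 in null cultures 1 to 4 and 9.15 to 9.62 in wild-type cultures, so null cultures 2 and 3 lay within the wild-type range. The summed intensity ran from 20350 to 60590 in null cultures and from 17500 to 31460 in wild-type cultures, and Col1a2, Col3a1, Postn and S100a4 were below background on all 8 arrays. Fn1, the matrix protein fibronectin, had log2 fold changes of 1.43, 1.40 and 0.83 over its 3 kept probes (adjusted p = 0.118, 0.130 and 0.320), with no overlap between the groups. Of 23 probes of epithelial junctions and polarity 0 were called, 5 (of 4 genes) were lower and 0 higher at an unadjusted p under 0.05, with a median of -0.84. Ovol2, a zinc finger factor that keeps cells epithelial, had 8.503, 8.57, 8.83 and 7.97 in null cultures and 9.42, 10.38, 10.10 and 10.34 in wild-type cultures (log2 fold change -1.59, SE 0.27, adjusted p = 0.0917).

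The pluripotency list had the highest median, 1.35, with 1 of 34 probes called, that of Lin28a described above, and 15 higher and 0 lower at an unadjusted p under 0.05. The 15 probes belong to 8 genes, and 4 of them are the Tbx3 probes also counted in the mesoderm list. Without null culture 2 the median was 0.56. It was also 0.56 without the detection filter, and 0.34 over probes detected on all 8 arrays. The level was highest in null culture 2, with a mean of 12.33 over the list, whereas the remaining null cultures had 9.93 to 10.88 and wild-type cultures 9.21 to 10.25. The summed intensity ran from 42090 to 150800 in null cultures and from 51620 to 65580 in wild-type cultures. Dppa4, a chromatin factor of pluripotent cells, had 10.42, 13.51, 11.83 and 10.67 in null cultures and 9.74, 9.87, 8.86 and 10.45 in wild-type cultures with ILMN_2593476 (log2 fold change 1.88, SE 0.66, adjusted p = 0.432). The core factors Pou5f1, Nanog and Sox2 overlapped between the groups with each of their 5 kept probes, with log2 fold changes of 0.25 to 0.60.

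**Figure D4:**
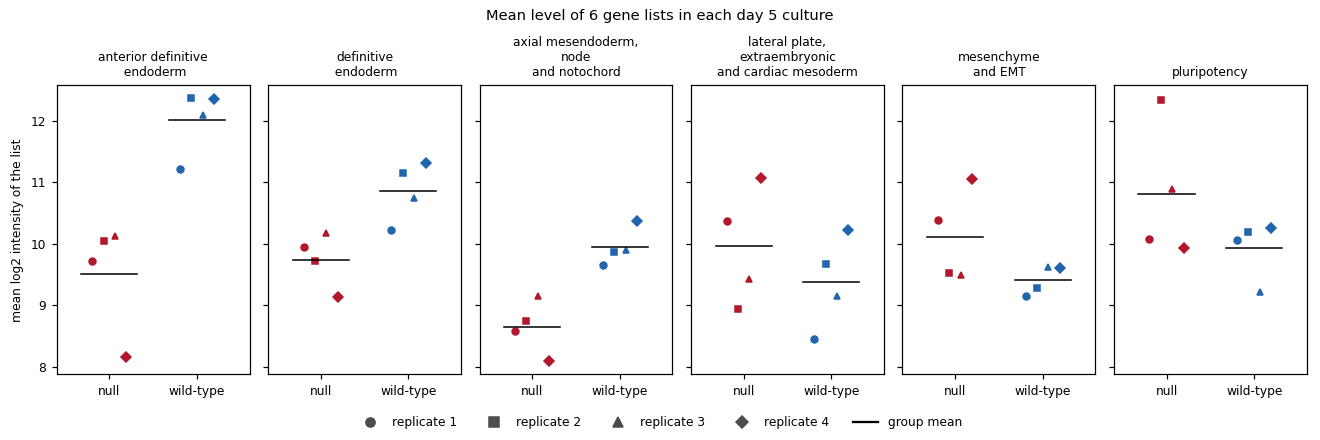
Mean log2 intensity of 6 gene lists in each null (red, left) and wild-type (blue, right) culture, with marker shapes for culture numbers and bars for group means. The anterior DE list lies between 8.17 and 10.12 in null cultures and between 11.21 and 12.36 in wild-type cultures, and null culture 4 is lowest there and highest for mesoderm (11.07) and mesenchyme (11.05).

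The cultures of the null group thus differed among themselves in more than Lhx1. Null culture 4, with the lowest Lhx1, was the lowest null culture for the anterior DE, DE and axial mesendoderm lists (means of 8.17, 9.13 and 8.09) and for Gsc, a homeobox gene of the organizer, which had 8.70 there and 12.72 to 13.56 in null cultures 1 to 3. The part of this variation in the differences between the genotypes was not tested. The anterior DE list had means of 9.72 to 10.12 in null cultures 1 to 3 and 11.21 to 12.36 in wild-type cultures. Its members were chosen with results of these samples known, so these means are a description only.

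In the list of imprinted genes 0 of 22 probes were called, and the median log2 fold change was 0.64. At an unadjusted p under 0.05 in limma 7 probes, of 4 genes, were higher and 4, of 3 genes, lower. Among the lower ones Grb10, an adaptor that dampens growth factor receptor signalling, had 12.22, 9.03, 7.36 and 9.01 in null cultures and 13.17, 14.74, 14.19 and 14.20 in wild-type cultures with ILMN_2518412 (log2 fold change -4.67, SE 0.89, adjusted p = 0.118). With ILMN_2546546 Grb10 had -3.77 (SE 0.62, adjusted p = 0.0871). The groups did not overlap with either probe, and null culture 1 was nearest to wild-type with both. In the list of secretory granule genes 5 of 23 genes were kept. All 5 probes had a negative log2 fold change and 3 were at an unadjusted p under 0.05, those of Trh, Cyb561 and Cadps2. The median was -1.92, and -0.18 without the detection filter. Cadps2, a factor for dense-core vesicle release, had 7.75, 7.59, 8.29 and 6.61 in null cultures and 9.35, 11.001, 10.52 and 10.63 in wild-type cultures (log2 fold change -2.82, SE 0.43, adjusted p = 0.0700). In the neural and surface ectoderm list 3 of 22 genes were kept, none of them called, and Sox1, Pax6 and Tubb3 were below background on all 8 arrays. Of 17 probes of visceral and parietal endoderm 0 were called, and the median was -0.37. At an unadjusted p under 0.05 in limma 1 was lower, near the share over all kept probes (5.83%). Afp and Rbp4 were below background on all 8 arrays.

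The number of calls depended on single cultures. Without wild-type culture 1, which was the lowest wild-type culture in 10 of the 15 lower calls, 71 probes were called, 63 lower and 8 higher, and all 18 calls were among them. Leaving out any other culture gave 3 to 16 calls, fewest without wild-type culture 2. Cops8, Shh and Pilra were called in each of these 8 fits, and Insig2 in 7. Lin28a lost its call in 3 of them, Rgs8 and Pxdc1 in 4, Samd3 in 5, and Shisa2 and Sfrp1 (ILMN_2604282) in 6. Sema6d, Flt1, Parm1, Hhex, Rap1gap2, Foxd4, Ifitm3 and the second Sfrp1 probe lost theirs in 7, in every fit but that without wild-type culture 1. With the culture number as a block 27 probes were called, 23 lower (0.165%) and 4 higher (0.0288%), and 14 of the 18 were kept. The block added 13 probes, among them those of Fzd8, Sox17, Shroom3 and Xlr4a. Xlr4a, an X-linked gene of a lymphocyte-regulated family, had 10.16, 12.83, 11.44 and 10.61 in null cultures and 7.44, 9.09, 7.497 and 7.67 in wild-type cultures (log2 fold change 3.34, SE 0.60, adjusted p = 0.106 without and 0.0247 with the block).

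**Figure D5:**
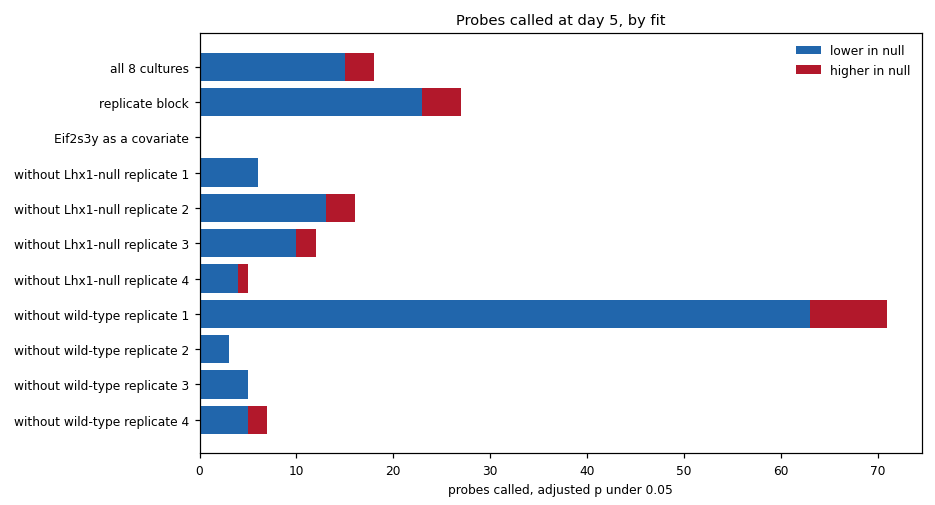
Number of probes called at an adjusted p under 0.05, lower (blue) and higher (red) in null cultures, in limma fits to all 8 cultures, with the culture number as a block, with Eif2s3y as a covariate and without each culture in turn. The count is 18 with all cultures, 71 without wild-type culture 1 and 0 with the covariate.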

How the data were processed

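RNA of 4 Lhx1-null and 4 wild-type day 5 cultures was hybridized to 1 array each. The authors deposited probe intensities on a linear scale, not normalized and not background-subtracted, each with a detection p-value that the authors deposited too, from GenomeStudio (version not given in the sources used here). A further deposited table holds rank invariant normalized intensities, on each array a straight-line function of the first. The number of arrays limits the precision.

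Here background was removed by limma's neqc (limma 3.58.1 in R 4.3.3), which takes the negative controls' level out of the detection p-values, with an offset of 16, followed by quantile normalization and log2. The filter asked for a detection p under 0.01 on 4 or more arrays. Probes were tested with limma's lmFit and eBayes on the 2 group means, with Benjamini-Hochberg adjustment over 13899 probes. Lhx1 was also tested by an exact permutation test. The authors' test, the custom error model of Illumina, was not repeated. A log2 fold change is null minus wild-type.

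Symbols came from the platform annotation, with 34885 of 45281 probes carrying 1 symbol, 18 several and 10378 none, and 34807 matched RefSeq by Entrez ID with no symbol changed. The 24 lists hold 514 genes. The members and lists were chosen with earlier results of these data known. Named are all called probes and, up to 36 in all, uncalled probes with a symbol and without overlap. The uncalled ones were taken by lowest p, alternately from the lower and the higher probes. Also named are Lhx1 and, from each list, up to 4 genes by lowest p, narrowed to those with an unadjusted p under 0.05. Of these only a part is described, and further members, chosen after their values were seen, stand beside them as markers.

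Same-numbered null and wild-type cultures deviated from their group means together, with correlations of 0.173 to 0.378, so a fit with the number as a block stands beside the results. Only 2 of 4 null cultures correlated best with their own number, and the labels do not state a pairing. Other settings tried were an offset of 50, no background correction, the rank invariant values, other filters, the brightest probe of each symbol, the block, array weights, a trended robust prior, Eif2s3y as a covariate, and leaving out each culture.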

Additional observations from a re-analysis of the deposited data

Results flagged for a closer look

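The named probes and the other kept probes of their genes were examined for a culture apart from the other 3 of its genotype. Dixon's test of the gap over the range was used. Genes described only as further markers, such as Cer1, Cxcr4 and Gsc, were not examined. Of 248 groups of 4 cultures, 11 (4.44%) had one, and chance flags about 1 in 20 groups. In null culture 3, Cops8 was high at 7.09 against 6.0 to 6.05 in the other null cultures, Parm1 was high at 9.02 against 8.27 to 8.30, and Slc2a3, a glucose transporter, was low at 12.48 against 13.29 to 13.34. In null culture 1, Ifitm3 was low at 11.30 against 12.08 to 12.09, and Shroom3, an actin-binding protein of apical constriction, was low at 6.84 against 7.92 to 8.14. In null culture 4, Lhx1 (ILMN_1225672) was low at 8.06 against 13.38 to 14.40. In null culture 2, Ssbp4, a cofactor of the Ldb1 complex, was high at 8.60 against 6.84 to 7.09, and the MAP kinase phosphatase Dusp4 (ILMN_2870965) was high at 9.59 against 8.30 to 8.49. In wild-type culture 2, Xlr4a was high at 9.09 against 7.44 to 7.67 in the other wild-type cultures, and Dusp4 (ILMN_2689731) was low at 10.96 against 11.80 to 11.85. In wild-type culture 1, Cyp26a1, which degrades retinoic acid, was low at 11.80 against 12.81 to 12.97 (ILMN_2957054).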

How the results depend on the processing

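With all 8 cultures 18 probes were called, 15 lower and 3 higher in null cultures. The counts stayed within 1.5 times of these without background correction, with an offset of 50, with rank invariant values, with the brightest probe of each symbol and with array weights. With the culture number as a replicate block 27 probes were called, 23 lower and 4 higher. A trended, robust prior gave 28, 23 and 5. Probes detected on all 8 arrays gave 7, 6 and 1 of 9811, where 7 of the 18 were tested and all 7 called. No filter on dim probes gave 0 of 45281 in limma (2987 at an unadjusted p under 0.05), and Eif2s3y as a covariate gave 0 (976), with log2 fold changes of the 18 probes 0.774 to 1.19 times those without it. Leaving out 1 culture gave 3 to 71 calls, 3 to 63 lower and 0 to 8 higher, the lowest without wild-type culture 2 and the highest without wild-type culture 1. Lhx1 by ILMN_2716543 differed by -2.11 in rank invariant values (exact permutation p = 0.0571), and without 1 culture by -3.19 to -1.14, with that same p when any 1 wild-type culture was left out. By ILMN_1225672 it differed by -2.87 (exact permutation p = 0.0286, without null culture 3) to -0.76 without 1 culture, and p was 0.171 to 0.257 when any 1 wild-type culture was left out. Among the named probes and the other kept probes of their genes, directions turned only for the latter, none of them called. With Eif2s3y as a covariate these were Insig2 ILMN_1216822 (0.23), Lin28a ILMN_1220027 (0.048) and ILMN_2992814 (0.30), Ccnd3 ILMN_1246473 (-0.099) and Nle1 ILMN_2712419 (-0.23), and with rank invariant values Ndel1 ILMN_2639296 (0.034). Without 1 culture the ranges were -0.24 to 0.0049 for Insig2 ILMN_1216822, -0.017 to 0.27 for Lin28a ILMN_2525870, -0.45 to 0.35 for Lin28a ILMN_2992814 (0.24 without wild-type culture 2), -0.30 to 0.085 for Ndel1 ILMN_2639296 (0.025 without null culture 1) and -0.020 to 0.43 for Nle1 ILMN_2712419. Causes were not tested. The medians of the 24 lists were recomputed 431 times, once per list and setting, and 19 of these values, from 9 lists, moved by more than the spread of cultures. In 5 of them the sign changed, in the lists of the Wnt pathway (0.38 with Eif2s3y), the primitive streak (-1.08 on all 8 arrays), retinoic acid (-0.037 without a filter and -0.011 on all 8 arrays) and guidance cues (0.19 with array weights). Signal over background limits the dimmest calls, and their log2 fold changes depend on the background step. Without background correction they were -2.38 for Shh, -3.15 for Cops8 and 1.04 for Lin28a (ILMN_2521653), against -4.18, -4.73 and 2.05 with it. The brighter Sfrp1 probe ILMN_2604282 had -2.89 without and -3.15 with the correction. Bounds are given for the calls below background throughout 1 group.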

Other observations

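Locations of genes were read from RefSeq (GRCm38.p6) after the calls had been seen, so the following is a description. Of 12166 kept probes with a location, 93 (0.764%) had an unadjusted p under 0.001. On chromosome 1 there were 11 of 620 (1.77%), those of Cops8, Mcm6, Insig2, Rgs8, Sox17, Fzd5, Ipo9, Phlda3, Kdm5b and 2 of Fn1. Cops8, Insig2 and the dim Mcm6 probe were each higher in wild-type cultures 1 and 2 than in wild-type cultures 3 and 4.

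Lhx1 lies on chromosome 11, where 12 of 1097 probes (1.09%) had such a p. Within 20 Mb of Lhx1 there were 8 of 505 probes of other genes (1.58%), against 0.729% of the probes elsewhere. They belong to 4933427D14Rik, Nxn, Ndel1, Wscd1, Synrg, Slc16a13, Rap1gap2 and Nle1. Synrg, the nearest of them, had 8.69, 8.76, 8.86 and 8.41 in null cultures and 9.49, 10.49, 9.98 and 10.45 in wild-type cultures (log2 fold change -1.42, SE 0.25, adjusted p = 0.102 in limma). Nle1 was the only one of the 8 higher in null cultures, at 11.57, 11.71, 12.14 and 11.62 against 10.74, 10.33, 10.41 and 9.36 in wild-type cultures (log2 fold change 1.55, SE 0.30, adjusted p = 0.118 in limma), and its second probe had 0.19 (adjusted p = 0.923).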
